A study of Rattus norvegicus with 15 samples.

Results

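Homeobox, Fox and Sox genes encode transcription factors, proteins that bind DNA and set which genes a cell transcribes. They were examined here in the olfactory epithelium of adult rats. The rule for members takes gene names on the array and no signal: names of the Hox, Dlx, Pou, Nkx, Meis, Pbx, Msx, Otx, Irx, Lhx, Pax, Fox and Sox families and of the family of Six2 to Six6, leaving out Lhx2, Pax6, Sox2 and Foxj1. This gave 124 genes of the 35561 gene names on the array, read by 149 of its 41012 probes. The tissue came from 8 Brown Norway rats aged 6 weeks, 4 males and 4 females, with the nostrils of each animal hybridized separately as A and B. Male 1 was represented by nostril A alone, so that 15 arrays were available, 7 from males and 8 from females. All rats were of 1 strain and age and carried no treatment or genetic change named in the labels, and the labels give neither the supplier of a rat nor which nostril was the left one.

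Homeodomain proteins pattern the body and specify cell types. Hox genes lay out the trunk and limbs, whereas genes of the Otx, Dlx, Pax and Fox families and the family of Six3 are used in the head, including the placode from which the olfactory epithelium arises. Fox proteins carry a forkhead domain and Sox proteins an HMG box related to that of SRY. In the olfactory mucosa, neurons are renewed throughout life from basal cells, above a lamina propria with glands, vessels, ensheathing glia and nearby bone and cartilage, so each of these cells may contribute transcripts of its own factors.

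Signals are Cy3 intensities divided by the median of their array and given as log2, so 0 is the median spot and a difference of 1 is a doubling. Values under 0.1 of the array median were set to that floor (-3.32 on the log2 scale), where values have no order. A probe was called detected on an array when its signal was well above background. Probes detected on 11 to 15 arrays are called expressed, on 1 to 10 arrays weakly expressed, and on 0 arrays not expressed. The lowest detectable signal lay between -2.96 and -2.08 on the log2 scale, depending on the array, so transcripts below it were not detectable and may still be present. Signals of different probes depend on the probe sequence and were not set against each other. The labelled tissue was checked by its markers: all 8 probes for genes of mature olfactory neurons (Omp, Cnga2, Cnga4, Adcy3, Gnal and Rtp1) and all 4 probes for genes of sustentacular cells were expressed. Between 26233 and 28741 of all probes, and between 59 and 79 of the 149 member probes, were detected per array. The array with the fewest detected probes was nostril B of male 6 and the array with the most was nostril B of female 4, for the members as for all probes.

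Probe sequences show what was read. Sox9, a factor of cartilage, glands and supporting cells, was read by 4 probes of 60 bases that fell in all 3 detection classes, and the first 30 bases of each are shown with the number of arrays on which it was detected. All 4 lie on the plus strand of chromosome 10 of build rn3.
Sox9 probe A_44_P263110 (chr10:102408192-102408251, 3 arrays): atgaatctcctggaccccttcatgaagatg
Sox9 probe A_44_P102481 (chr10:102408594-102408653, 13 arrays): ctcagcaagactctgggcaagctctggaga
Sox9 probe A_42_P745356 (chr10:102409902-102409961, 15 arrays): agagagactttaagacattatctgagctca
Sox9 probe A_44_P221245 (chr10:102410155-102410214, 0 arrays): tcattaccattttgaggggatttatacata
Hoxa5, a trunk patterning gene, and Pou2f3, a factor of chemosensory tuft and microvillar cells, each had 2 probes that disagreed. The Hoxa5 probes lie on the minus strand of chromosome 4 and the placed Pou2f3 probe on the minus strand of chromosome 8, while the array annotation gives the second Pou2f3 probe no position.
Hoxa5 probe A_44_P262274 (chr4:80779832-80779891, 0 arrays): taatcatgagcctgtttattgccattatag
Hoxa5 probe A_44_P292669 (chr4:80780130-80780189, 13 arrays): acctgacccgccgaagaaggattgaaatag
Pou2f3 probe A_44_P269280 (chr8:46134388-46134447, 15 arrays): gtcctttcctactctgcactatgaccgttc
Pou2f3 probe A_44_P311351 (no position, 4 arrays): cagcggcactcccagttcgtccccactctc
The Sox9 probe that was not detected on any array holds 14 G or C among its 60 bases and the other Sox9 probes 27 to 34. Of the Hoxa5 probes, the undetected one holds 23 and the detected one 31. The Pou2f3 probes go the other way, with 33 in the probe detected on 4 arrays and 25 in the probe detected on 15.

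The first question was which of these factors are detectable in the tissue. Expression was found for 65 of the 149 probes (43.6%), against 65.1% of all probes, weak expression for 30 and none for 54. Counted by gene, with each gene taken at its best probe, 52 of 124 were expressed, 26 weakly expressed and 46 not expressed. Without the Hox genes, 64 of 120 probes (53.3%) were expressed. Several probes read 1 gene and genes of a family are related, so no test was run on these shares.

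**Figure D1:**
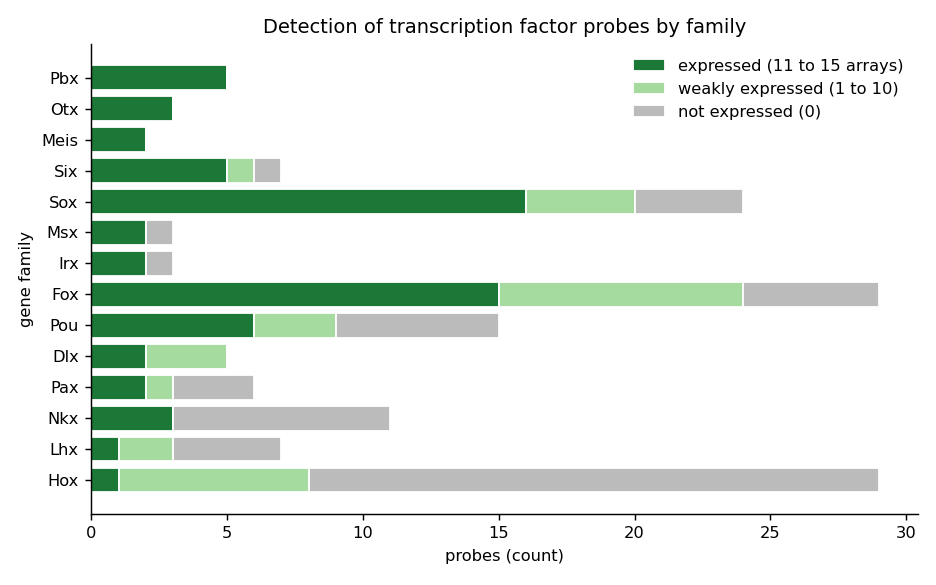
Number of probes (x axis, count) of each gene family (y axis) that were expressed, weakly expressed or not expressed over 15 arrays. Every Pbx, Otx and Meis probe was expressed, against 1 of 29 Hox probes.

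Trunk patterning genes were seldom expressed. Of 29 probes for 24 Hox genes, 1 was expressed, 7 weakly expressed and 21 not expressed, while 65.1% of all probes were expressed. The probes cover all 4 Hox clusters, on chromosomes 4 (HoxA), 10 (HoxB), 7 (HoxC) and 3 (HoxD) of rn3. Hoxa5 was detected by its probe A_44_P292669 on 6 of 7 male and 7 of 8 female arrays, with values from -2.89 to -1.07 and a median of -1.62. Its other probe stayed at the floor on all 15 arrays, so the Hoxa5 signal rests on 1 probe. The remaining 28 Hox probes gave 12 detections among 420 probe and array combinations (2.86%), and no probe was detected on more than 3 arrays. Hoxc8 was detected on 3 arrays, all from females, Hoxd10 on 3, Hoxa7 on 2, and Hoxb2, Hoxb8 and Hoxc6 on 1 each. Every probe for Hoxa2, Hoxa4, Hoxa9, Hoxb1, Hoxb3, Hoxb9, Hoxb13, Hoxc4, Hoxc5, Hoxc10, Hoxc12, Hoxd1, Hoxd3, Hoxd4, Hoxd12 and Hoxd13 was undetected. With the scanner software's weaker call, a positive and significant signal, 4 of the 29 Hox probes passed on at least 11 arrays, against 94 of the 149 member probes and 76.7% of all probes.

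Factors of the placode and of the neuron lineage were mostly detected. Of the 11 probes for 8 genes of that list on the array, 9 were expressed, against 65.1% of all probes. By gene it was 6 of 8, with Sox4 read by 3 probes and Otx2 by 2. Otx2, a head patterning factor, Dlx5, a factor of placode and bone, Sox11 and Sox4, factors of immature neurons, were detected on all 15 arrays by every probe. Six4 was not detected and Dlx3 was detected on 1 array. Outside that list, Six2, Six3 and both Six5 probes were detected on 15 arrays and Six6, an eye and pituitary factor, on 1. Otx1 was detected on 15 arrays. Dlx1 was detected on 15 arrays, Dlx2 on 4 and Dlx4 on 1.

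The Pbx and Meis factors of the TALE class, which bind DNA together with other homeodomain proteins, were detected throughout. Pbx2, the 3 Pbx3 probes, Meis2 and Meis3 were found on all 15 arrays. Irx3 was detected on 15 arrays, Irx2 on 14 and Irx4, a heart factor, on 0. Msx1 and Msx2, factors of craniofacial bone and skin appendages, were detected on 15 arrays and Msx3, a spinal cord factor, on 0.

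Pou, Lhx, Nkx and Pax genes were detected in part. Of the Pou genes, both Pou2f1 probes, Pou2f2 and Pou6f1 were detected on 15 arrays and Pou3f3 on 12, Pou3f2 on 2 and Pou4f1 on 1, while Pou1f1 of the pituitary, Pou5f1 of stem cells, Pou3f1, Pou3f4, Pou4f2 and Pou4f3 were not detected. Lhx3 was detected on 15 arrays, Lhx8 and Lhx9 on 1 each, and Lhx1, Lhx4, Lhx5 and Lhx6 on 0. Nkx2-4 was detected on 15 arrays and Nkx2-2 on 12. One Nkx6-2 probe was detected on 11 arrays and the other on 0. Nkx1-2, Nkx2-3, Nkx2-5 of the heart, Nkx2-6, Nkx2-9 (now Nkx2-8) and Nkx6-1 were not detected. Both Pax3 probes were detected on 14 arrays, Pax2 on 2, and Pax1, Pax4 and Pax8 on 0.

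Among the 29 Fox probes, 15 counted as expressed (51.7%, against 65.1% of all probes), 9 as weakly expressed and 5 as not expressed. Foxa1 of glandular epithelium, both Foxc2 probes, Foxd4, Foxe1 (a thyroid and palate factor), Foxi1 (a factor of ionocytes), both Foxk2 probes, Foxm1 (a factor of dividing cells), Foxo1a and Foxo3a (now Foxo1 and Foxo3), Foxp1 and Foxq1 were detected on all 15 arrays, and Foxd3 of neural crest and glia on 13. The weakly expressed genes were Foxn1 and Foxd2, with at most 9 arrays, Foxe3 with 8, Foxj3 with 4, Foxa3 with 3, Foxp3 of regulatory T cells and Foxp4 with 2 each, and Foxa2 with 1. Foxh1, Foxi2, Foxl2, Foxn4 and Foxr1 were not detected. Foxe3 was detected on 7 of 8 female arrays and 1 of 7 male arrays, with values from -2.75 to -1.52, around the detection limits, and a limma adjusted p of 0.205 between the sexes.

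Of the Sox probes 16 of 24 (66.7%) were expressed, close to the share of all probes. Sox4, Sox5, Sox10 of glia, Sox11, Sox15, both Sox18 probes of endothelium, Sox21 and both Sox30 probes were detected on 15 arrays, and Sox13 on 14. Sox6 was detected on 12 and 7 arrays by its probes. Sox17, an endothelial and endoderm factor, was detected on 5 and 0 arrays by its probes, and Sox14 on 1 array. Sox7 of endothelium and Sox8 of glia were not detected.

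Of the 21 genes with more than 1 probe, 7 had probes in different detection classes: Hoxa5, Hoxc6, Nkx6-2, Pou2f3, Sox6, Sox9 and Sox17. For Sox9, probe A_42_P745356 gave 2.96 to 3.27 over the 15 arrays, and the undetected probe lies next to it, further along the gene. The Pou2f3 probe found on 15 arrays gave 3.16 to 3.71. The other is annotated to a separate mRNA record for a Pou homeodomain protein. For genes with a single probe, a class therefore describes that probe.

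Reference promoters (GRCr8, RefSeq, 250 bases before to 50 after the start) were given for 77 of the 124 genes. Members were richer in CpG than promoters as a whole, with a median of 19 CpG in 300 bases against 7 over 27457 promoters. The 31 expressed members had a median of 22, the 16 weakly expressed 23.5 and the 30 not expressed 17. A median of 20 was found for the 12 Hox promoters. A pair of promoters is shown, with each CpG in capitals: Six5, detected on 15 arrays by both probes, has 18, and Hoxd1, undetected by both of its probes, has 30. Both are on the plus strand.
Six5 (GRCr8 chr1:87869156-87869455): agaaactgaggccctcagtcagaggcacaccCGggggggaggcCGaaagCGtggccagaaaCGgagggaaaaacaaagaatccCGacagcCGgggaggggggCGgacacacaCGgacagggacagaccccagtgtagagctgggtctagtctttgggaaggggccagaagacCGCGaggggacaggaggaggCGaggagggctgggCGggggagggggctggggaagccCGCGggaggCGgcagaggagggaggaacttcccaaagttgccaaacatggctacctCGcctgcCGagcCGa
Hoxd1 (GRCr8 chr3:80072791-80073090): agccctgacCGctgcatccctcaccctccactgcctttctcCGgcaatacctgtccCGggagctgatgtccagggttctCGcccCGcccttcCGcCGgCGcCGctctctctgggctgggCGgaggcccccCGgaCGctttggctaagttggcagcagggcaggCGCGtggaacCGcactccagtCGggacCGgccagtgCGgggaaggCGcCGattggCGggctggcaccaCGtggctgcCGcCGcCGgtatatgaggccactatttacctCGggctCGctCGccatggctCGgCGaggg
Short motifs bound by these proteins were searched on both strands. The homeodomain core TAATTA was in 1 of the 77 member promoters (1.30%) and in 5.35% of all promoters. The Sox motif AACAAT was in 5 (6.49%) against 11.6%, and the forkhead motif TGTTTAC in 1 (1.30%) against 3.76%. A match is a run of letters in this window and not a shown binding site.

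Levels were compared for the 70 member probes, from 55 genes, that were detected on at least 7 arrays. The other 79 probes were not tested. The 8 rat means of a tested member spanned a median range of 0.62 on the log2 scale, against 0.47 over all tested probes, and the nostrils of 1 rat differed with a median SD of 0.17 against 0.12. The narrowest member was Foxm1, whose rat means ran from 2.45 to 2.59. Among tested probes with no value at the floor, wide ranges were those of Six5 (A_44_P255334, 1.64), Irx3 (1.35), both Pax3 probes (1.34 and 1.32) and Sox18 (A_44_P454913, 1.30). Foxd2 (A_44_P349004) spanned 2.01 as measured, but it was detected on 7 of 15 arrays and its lowest rats were not well above background, so its span is not known. In a whole tissue, fewer cells of a type and less RNA per cell cannot be told apart.

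The factors with a known role in cells of the mucosa differed in how far they varied. Among those of the placode and neuron lineage and their relatives, rat means of Six2 ran from 2.50 to 2.81, of Six3 from 1.87 to 2.43 and of Otx2 (A_44_P416824) from 5.19 to 5.38. Dlx5 ran from 6.27 to 6.75, Sox11 from 1.73 to 2.27 and the 3 Sox4 probes over ranges of 0.44 to 0.69. Pou2f3 ran from 3.22 to 3.71, Foxa1 from -1.34 to -0.31, Foxi1 from 0.76 to 1.21, Foxq1 from 0.44 to 1.23 and Sox9 (A_42_P745356) from 3.01 to 3.22. The mean of both tested Sox9 probes ranged more widely, from 0.44 (male 5, nostril B) to 1.32 (male 2, nostril A) on single arrays. Among craniofacial factors, Dlx1 ran from 0.24 to 0.72, Msx1 from 1.98 to 2.72 and Msx2 from -0.30 to 0.14, Sox5 from -1.23 to -0.61 and Sox6 (A_44_P424116) from -2.04 to -1.11. The other tested Sox6 probe, detected on 7 arrays, spanned 1.70 as measured. Foxd3 of glia ran from -1.94 to -0.66, Foxc2 of vessels (A_44_P633261) from 1.87 to 2.53 and Pou2f2 of lymphocytes from -2.07 to -1.49. The other Foxc2 probe ran from -0.75 to 0.19.

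The next question was whether the sexes differ. None of the 70 member probes passed the 1% threshold in limma, where 12 of 27625 probes did (0.0434%). At an unadjusted p under 0.05 there were 10 members of 70 against 17.1% of all probes. Leaving out each rat moved this count from 4 of 70 (without rat 5) to 17 of 70 (without rat 1). Over all 27625 probes it was 3419 and 5004 in those fits. The rat means of the sexes did not overlap for 6 members of 70, Foxe1, Pbx2, Foxe3, Sox10, Dlx5 and Otx1, against 11.3% of all tested probes. Of the 70, 28 were higher in females (40.0%) against 52.1% of all tested probes. With slide as a block it was 35 of 69 (50.7%) against 59.2%.

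Foxe1 had the smallest p. Its rat means were 4.08, 4.36, 4.19 and 4.09 in males 1, 2, 5 and 6 and 3.83, 3.52, 3.77 and 3.25 in females 3, 4, 7 and 8. Every male lay above every female. The means were 4.18 ± 0.13 in males and 3.59 ± 0.27 in females (SD, n = 4 each), a difference of -0.59 (SE 0.13) with a limma adjusted p of 0.106.

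Sox10, the factor of glia, had rat means of 4.34, 4.69, 4.58 and 4.48 in males and 4.12, 4.18, 4.21 and 4.32 in females. The lowest male lay just above the highest female. The difference was -0.32 (SE 0.08, limma adjusted p = 0.124). The mean of 6 tested glia marker probes ranged from 3.38 to 3.99 in males and from 2.82 to 3.62 in females. The mean of the 4 sustentacular probes ranged from 8.40 to 8.48 in males and from 8.57 to 8.73 in females, so that it too separated the sexes, in the opposite direction to Sox10. The part of either list in the Sox10 difference was not tested.

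Pbx2 had rat means of 2.48, 2.44, 2.08 and 2.13 in males and 2.75, 2.86, 2.49 and 2.51 in females. Male 1 and female 7 were almost level. The difference was 0.37 (SE 0.12, limma adjusted p = 0.181). With slide as a block it was 0.11 (limma adjusted p = 0.452). Slide 1 alone held both sexes. Otx2 (A_44_P561510) differed by 0.17 (SE 0.06, limma adjusted p = 0.197), with a mean of 7.88 ± 0.06 in males and 8.05 ± 0.08 in females, and Dlx5 by -0.21 (SE 0.08, limma adjusted p = 0.202), with 6.63 ± 0.08 and 6.42 ± 0.13 (SD, n = 4). With slide as a block the Otx2 difference was 0.26 (limma adjusted p = 0.106), and with normexp background 0.11 (limma adjusted p = 0.941). The second Otx2 probe differed by 0.04, with a limma adjusted p of 0.761. The mean of the 7 tested bone marker probes, of 8, ranged from 6.51 to 7.84 in males and from 6.44 to 7.41 in females, with Sp7 undetected. Its part in the Dlx5 difference was not tested.

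**Figure D2:**
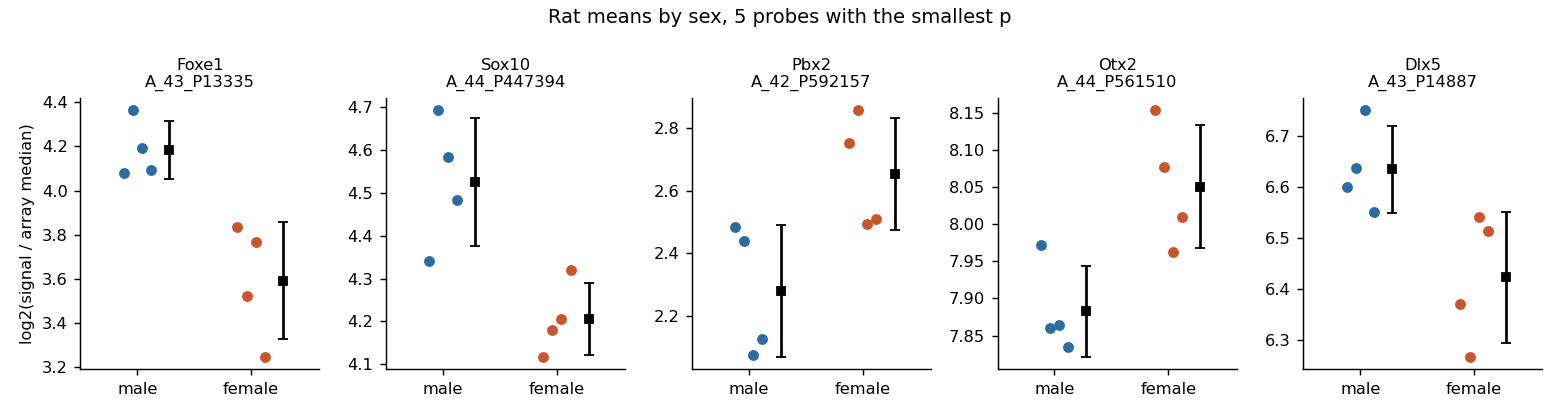
Rat means of log2(signal / array median) in 4 males and 4 females for the 5 member probes with the smallest p in the sex comparison; squares and bars are the mean and SD. The sexes are apart for Foxe1, Sox10, Pbx2 and Dlx5 and overlap for Otx2, and no adjusted p was below 0.106.

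By role, 4 of the 9 tested placode and neuron probes had an unadjusted p under 0.05 between the sexes, against 17.1% of all probes. The 9 went both ways, with 4 higher in females, both Otx2 probes among them, and 5 lower, of which 3 read Sox4. The median difference over all tested probes was 0.01. The 4 tested endothelial probes, of Foxc2 and Sox18, had a median of -0.29, with Foxc2 probe A_44_P671089 at -0.04. The 2 glial probes had a median of -0.39 and the 2 Pax3 probes, listed under skeletal muscle, of -0.50. All of these were lower in females. An unadjusted limma p under 0.05 was found for 0 of the 4 endothelial, 1 of the 2 glial and 1 of the 2 Pax3 probes. The tested muscle marker, Tnnt3, differed by -0.09 (limma adjusted p = 0.950). The 8 probes of factors of other organs had a median of -0.18, the 6 craniofacial probes of 0.08, the 5 secretory and ciliated probes of 0.01 and the 16 broadly expressed probes of -0.04. None passed the 1% threshold. The other transcription factors known in this tissue, among them Lhx2, Pax6, Foxj1, Ebf1, Ebf2, Ebf3, Neurod1, Hes1, Hes6, Insm1 and Bcl11b, had 17 probes for 13 genes on the array. All 17 were expressed, against 65.1% of all probes, and 0 passed 1% between the sexes, between rats of 1 sex or between nostrils.

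Rats of 1 sex were then compared, with the difference between nostrils as the error. Of the 69 members with a value on every array, 1 passed 1%, Six5 (probe A_44_P314876, chr1:78533728-78533787 of rn3), against 2.79% of all probes. At 5%, 10 of 69 members passed against 16.1% of all probes. These were Six5, Foxd2, Foxo1a, both Pou2f1 probes, Sox11, Pou2f3, Pou6f1, Foxq1 and Pbx2. With each rat left out the count at 5% ran from 2 (without rat 8) to 10 (without rat 3).

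Six5 encodes a homeodomain factor next to the gene for myotonic dystrophy kinase. On single arrays it gave 1.91 in male 1, 2.30 and 2.13 in male 2, 2.51 and 2.42 in male 5 and 2.33 and 2.30 in male 6. In females it gave 1.84 and 1.72 in female 3, 1.86 and 1.64 in female 4, 2.30 and 2.35 in female 7 and 2.24 and 2.40 in female 8. Nostrils of 1 rat stayed close while females 3 and 4 lay below females 7 and 8. The limma F was 14.7 with an adjusted p of 0.00797. Markers of other cells moved with it. The mean of the 7 tested bone probes was 6.51 in male 1, 7.23 in male 2, 7.84 in male 5 and 7.14 in male 6, and 6.52, 6.44, 7.28 and 7.41 in females 3, 4, 7 and 8. It had a Pearson r of 0.96 with Six5 over the 8 rats (exact permutation p = 0.000719, adjusted over 45 correlations 0.0162; rho 0.93, exact permutation p = 0.00223; r = 0.93 without the 2 farthest rats). Of the 7 tested bone probes 1 passed 1% between rats and of the 6 tested cartilage probes 2, against 2.79% of all probes. Endothelium had an r of 0.93 with Six5 (rho 0.55), cartilage of 0.85 (rho 0.71), basal cells of 0.77 (rho 0.76) and skeletal muscle of 0.73 (rho 0.86), with exact permutation p-values from 0.0116 to 0.0445 and adjusted p-values over 45 correlations from 0.0632 to 0.166. The relation is thus not shown to be particular to bone. These relations were computed after seeing the data, and the part of these cells in the Six5 difference was not tested.

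Position on the 4 slides followed the numbering of the rats. Males 1 and 2 shared slide 1 with the first nostril of female 3, whose other nostril was on slide 2 with female 4. Males 5 and 6 filled slide 3, and females 7 and 8 slide 4. By rat means, all 4 rats on slides 1 and 2 lay below all 4 rats on slides 3 and 4 for Six5, while single arrays overlapped. Such a separation was found for 8 of 70 members, in either direction, against 11.3% of all tested probes. With slide as a block, the Six5 F was 2.34 and its adjusted p 0.407, and among rats that share a slide it was 2.22 with an adjusted p of 0.452. Under the slide block 10 of 69 members had an unadjusted p under 0.05, against 17.1% of all probes, and 0 passed 1%. Rat and slide cannot be fully told apart here. The paper states that the rats came from 2 suppliers, but the labels do not give the supplier of each rat, so it was not compared. The call was also lost when any 1 of rats 2 to 8 was left out (adjusted p from 0.0104 to 0.0282), while F stayed between 11.6 and 17.9.

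The second Six5 probe, A_44_P255334, gave 0.01 in male 1, -0.53 in male 2, -0.41 in males 5 and 6, -1.63 in female 3, -0.90 in female 4, -0.28 in female 7 and -0.30 in female 8, as rat means. Females 3 and 4 were again the lowest, but male 1, low on the first probe, was the highest. Over the 8 rat means the 2 probes had a Pearson r of 0.58. The limma F of the second probe gave an adjusted p of 0.0711. With slide as a block its F was 9.76 with a limma adjusted p of 0.157. Among rats that share a slide its F was 1.89 with a limma adjusted p of 0.497.

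Foxd2 (A_44_P349004) had a rat mean of -3.28 in male 1 and -1.27 in male 2, -2.01 and -2.50 in males 5 and 6, and -2.58, -1.97, -2.38 and -1.58 in females 3, 4, 7 and 8. Male 2 was the highest, and the value of male 1 was not well above background (its array's limit was -2.58), so it is a bound. The probe was detected on 7 arrays, 3 of them from males. The limma F was 8.37 with an adjusted p of 0.0238. With slide as a block F was 10.3, no smaller, with an adjusted p of 0.155. The second Foxd2 probe did not follow it closely (r = 0.20 over rats) and had an adjusted p of 0.108. Male 1 had 1 array, so its value carries no nostril spread of its own.

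Foxo1a, a target of insulin signalling, ran from 1.98 in female 7 to 2.32 in female 3 (limma adjusted p = 0.0301), with the rats on slides 1 and 2 all above those on slides 3 and 4. Pou2f1, a factor used in most cells, was read by 2 probes that moved together over rats (r = 0.90). The first ran from 4.08 in female 8 to 4.51 in female 3 (limma adjusted p = 0.0330) and the second from 0.40 to 0.89, in female 8 and male 1 (limma adjusted p = 0.0371). Females 7 and 8 were the lowest rats on both probes. With slide as a block the limma adjusted p was 0.676 for Foxo1a and 0.338 and 0.480 for the Pou2f1 probes, and no member passed 5% (0 of 69).

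**Figure D3:**
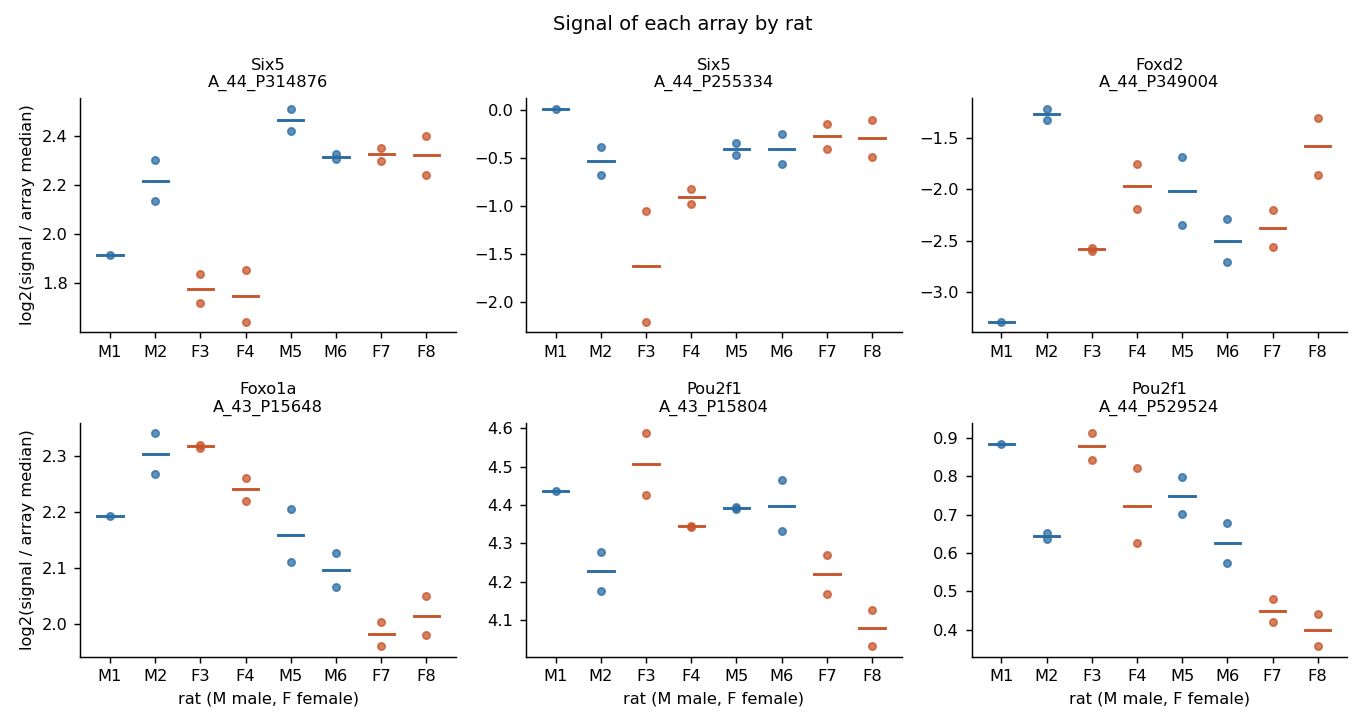
log2(signal / array median) of every array by rat for both Six5 probes, Foxd2, Foxo1a and both Pou2f1 probes; points are arrays (nostrils), lines are rat means. Rats M1 to F4 lay on slides 1 and 2 and rats M5 to F8 on slides 3 and 4, whose rat means do not overlap for Six5 probe A_44_P314876 and Foxo1a, while single arrays do.

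The paired nostrils of 7 rats gave the last group comparison, B minus A. None of 69 members passed 1%, and neither did any of 27574 probes (0%). At an unadjusted p under 0.05 there were 8 members of 69, against 5.89% of all probes, and no adjusted p of a member was below 0.781. Msx2 differed by -0.32 (SE 0.11), lower in nostril B in 6 of 7 rats. Its single differences ran from -0.96 in female 4 to 0.02 in female 8, with the other 5 between -0.40 and -0.14. Foxq1, known in mucus secreting epithelium, differed by 0.19 (SE 0.07), higher in B in 6 of 7 rats. Foxn1, the factor of thymus and skin epithelium, gave a fitted difference of 0.46 (SE 0.17), but it was well above background on 9 of 15 arrays, and in both nostrils of 3 of 7 rats. Sox21 differed by 0.14 (SE 0.05), higher in 5 of 7, and Sox18 (A_44_P454913) by -0.29 (SE 0.11), lower in 5 of 7. The lowest Sox18 difference, -0.81, was again that of female 4. The labels do not tie the letters to sides, so the sign is that of the letters. For all 5 the limma adjusted p was 0.781. With normexp background each was smaller in size, -0.14 for Msx2, 0.10 for Foxq1, 0.13 for Foxn1, 0.03 for Sox21 and -0.20 for Sox18.

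Finally, 10 members were set against markers of the cells in which they are known, over 8 rat means and again over the difference between nostrils in 7 rats, which removes what a rat's arrays share. This gave 20 correlations, with exact two-sided permutation p-values adjusted over all 20. Sox18 and Sox10 passed 5% over rats. Centred within slides, r was nearly the same for both but neither passed. No correlation passed over nostril differences.

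Sox18, needed for the formation of vessels, followed the 3 tested endothelial probes, of Kdr, Emcn and Vwf. Over 8 rats r was 0.96 (exact permutation p = 0.000595, adjusted p = 0.0119) and Spearman's rho 0.86 (exact permutation p = 0.0107). Without the 2 rats farthest from the median marker level, r was 0.95. Over nostril differences r was 0.69 (exact permutation p = 0.0726, adjusted p = 0.223, rho 0.64 with an exact p of 0.139) and without the 2 farthest rats -0.11, so that value rests on those rats. Of the 11 endothelial probes, 7 were not detected on any array, those for Pecam, both Tek and both Flt1 probes and 1 probe each of Cdh5 and Vwf. The 2 Sox18 probes moved together (r = 0.96 over rats). Other lists also moved with Sox18 over the rats: computed after seeing the data, r was 0.86 with cartilage, 0.84 with glia and 0.83 with bone (rho 0.74, 0.79 and 0.60), with exact permutation p-values from 0.00848 to 0.0167 and adjusted p-values over 45 correlations from 0.0625 to 0.0750. The relation is thus not shown to be particular to endothelium. The call was lost without female 4 (r = 0.96, adjusted p = 0.0655 by exact permutation) and without female 7 (r = 0.98, adjusted p = 0.0714 by exact permutation).

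Sox10 followed the 6 tested glia probes, among them those of Plp, Fabp7, Gfap and Erbb3, while S100b was not detected. Over rats r was 0.90 (exact permutation p = 0.00231, adjusted p = 0.0231) and rho 0.86 (exact permutation p = 0.0107), and without the 2 farthest rats r was 0.76. Over nostril differences r was 0.92 (exact permutation p = 0.0359, adjusted p = 0.180) and rho 0.57 (exact p = 0.200), falling to 0.34 without the 2 farthest. The call over rats was lost without any 1 of rats 1, 2, 3, 4 and 7, with r from 0.83 to 0.90 and an adjusted p of up to 0.218. Over the rats Sox10 also had an r of 0.86 with cartilage (rho 0.81, exact permutation p = 0.00791, adjusted over 45 correlations 0.0625). With the 4 sustentacular probes r was -0.92 (rho -0.93, exact permutation p = 0.00203, adjusted 0.0259) and -0.89 without the 2 farthest rats. The relation is thus not shown to be particular to glia. Sox10 and the sustentacular mean both separated the sexes, in opposite directions. The permutations were not held within sex, and the part of sex in this r was not tested. The widest pair of nostrils was that of female 4, in which Sox10 was 4.60 in A and 3.76 in B and the glia probes averaged 3.68 and 2.30. With both measures centred within slides 1 and 2 and within slides 3 and 4, r over the 8 rats was 0.95 for Sox18 (exact permutation p = 0.0174, adjusted p = 0.174) and 0.90 for Sox10 (exact permutation p = 0.0156, adjusted p = 0.174), so neither passed 5%. This was chosen after seeing the data and has 576 permutations.

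**Figure D4:**
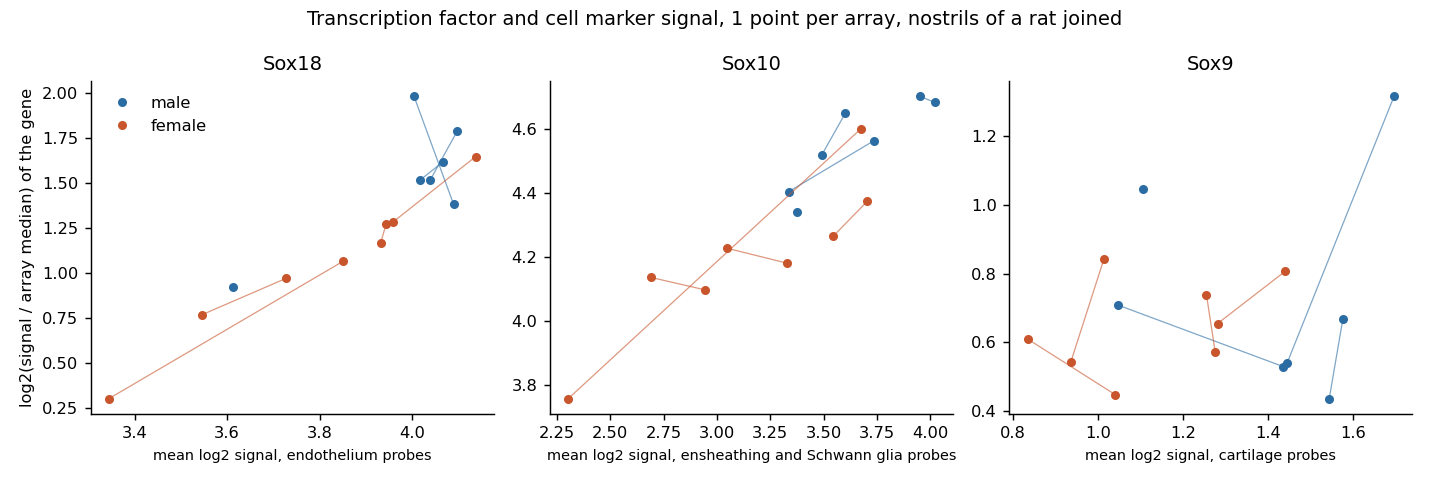
log2(signal / array median) of Sox18, Sox10 and Sox9 (y axis) against the mean log2 signal of the tested endothelial, glial and cartilage probes (x axis), with 1 point per array and the nostrils of a rat joined; Sox18 and Sox9 are means of their 2 tested probes. Over the 8 rat means r was 0.96, 0.90 and 0.12.

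The other members set against markers had no call. Dlx5 with bone markers gave r = 0.74 (rho 0.50, exact permutation p = 0.0328 for r, adjusted p = 0.180) and Sox11 with markers of immature neurons 0.69 (rho 0.76, exact permutation p = 0.0566, adjusted p = 0.223). Pou2f3 with tuft cell markers gave 0.54 (rho 0.57, exact permutation p = 0.174, adjusted p = 0.404). For Foxm1 with proliferation r was 0.24, for Sox9 with cartilage 0.12 and for Foxa1 with glands -0.30, with exact permutation p-values from 0.477 to 0.779. The Sox9 value is for the mean of its 2 tested probes, detected on 13 and 15 arrays.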

How the data were processed

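Total RNA of 15 olfactory epithelium samples was labeled with Cy3 and hybridized to Agilent whole rat genome arrays of 1 color. The authors extracted each spot with Agilent Feature Extraction, and the deposited intensity values are background-corrected processed signals, with no scaling from array to array. A second deposited file gives ratio values, each signal over its array's median and then over its probe's median, and served as an alternative only. Positions are those of the array annotation (rn3), and gene names were updated through RefSeq (GRCr8), in which all 124 member genes matched, 3 of them by an older symbol.

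Spots marked as outliers (61 to 175 on an array) were dropped and saturated ones kept, and signals were divided by the array median, floored at 0.1 and put on a log2 scale. Probes detected on at least 7 arrays were tested with limma 3.58.1 (lmFit, eBayes with trend) in R 4.3.3, fitted over all probes, two-sided, with Benjamini-Hochberg adjustment at 1%. The sexes were compared over 8 rats with nostrils averaged, rats of 1 sex by an F test against nostrils, and nostrils with rat as a block, the pairing coming from the animal named in the labels. One tested member, Sox5, had a spot left out on an array and was not in the single-array fits. The fits were tested on simulated data. Correlations used exact permutation. Array number limits the precision.

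Some member and list genes entered every count and fit but are not reported here by name. The rule for members reads names only, but the members and lists to study were chosen with earlier results of these data known. Described in full were probes past 1%, the 5 with the smallest p per comparison, the 6 widest over rats among probes with no value at the floor, genes whose probes disagree, and genes with a role in the tissue's cells. Alternatives covered scaling, background, floor, filter, the ratio table, slide, unit and leaving out each rat.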

Additional observations from a re-analysis of the deposited data

How the results depend on the processing

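Leaving out each rat moved the count of expressed member probes between 64 and 65. It was 94 with the positive and significant call, 68 with at least 8 arrays and 54 with all 15. Between the sexes the count of members past 1% was 0 under every scaling, background, floor, filter and slide alternative and with any rat left out, by the methods' t-test too, and 1 with the 15 arrays taken as independent, where Foxe1 differed by -0.61 (limma adjusted p = 0.00414). Between rats of 1 sex the count was 0 with normexp background, 0 with the deposited ratio table, 0 with slide as a block, 0 among rats that share a slide (chosen after seeing the data), and from 0 to 1 with each rat left out. Without rat 3 the single call was Pbx2 (adjusted p = 0.00921), not Six5. With no filter on dim probes it was 2, Hoxa9 and Hoxd3, each of which had 1 array above the floor and 14 at it. At 5% the 10 members became 0 with normexp background and 4 with the ratio table, where 4442 of all probes became 185 and 3232. For all probes the count of 768 became 78 with normexp, 356 with the ratio table, 1305 with the 75th percentile, 1450 with quantile normalization, 1 with the slide block and 16 among rats that share a slide, and 186 to 898 with each rat left out. For the sexes, 12 became 1031 with independent arrays, 641 with the slide block, 6 with the ratio table and 3 with the filter at 11 arrays, and 8 by the methods' t-test. The causes were not tested.

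Between nostrils the count of members past 1% was 0 under every alternative. Without the replicate block, that is, not paired by rat, it was also 0, and 2 members had an unadjusted p under 0.05 in place of 8.

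The number of correlations past 5% was 2 under 75th percentile scaling, 0 with both measures centred within slides (chosen after seeing the data) and 0 to 3 with each rat left out: 0 without rat 4 or rat 7, 1 without rat 1, 2 or 3, and 3 without rat 6. Over these settings r stayed from 0.95 to 0.98 for Sox18 and from 0.83 to 0.96 for Sox10, with adjusted p from 0.00843 to 0.174 and from 0.00397 to 0.218. Transcripts below the detection limit of an array could not be compared.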
